A study of Mus musculus with 4 samples.

Results

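Pkib and Fabp7 lie next to each other on mouse chromosome 10 and were measured in telencephalon, the embryonic forebrain, at embryonic day 14. They are described here with 4 genes that flank them, Gja1, Hsf2 and Serinc1 on one side and Smpdl3a on the other. The 6 genes were found by their symbols among the 48795 genes of the deposited table, and all 6 were among the 22158 that passed the filter on low counts. They were chosen because Pkib was higher and Fabp7 lower in Ctcf-null tissue, so the difference between genotypes is given for all 6 as a description, without a p-value. The 2 Ctcf-null libraries came from embryos with floxed Ctcf and NestinCre, and the 2 control libraries from embryos with floxed Ctcf and no Cre named. All libraries are labelled C57BL/6, so that the floxed allele and the strain are shared by both genotypes. NestinCre is Cre recombinase driven by Nestin sequences, used to delete floxed genes in neural progenitors and their descendants; microglia and blood cells in the tissue come from other lineages. CTCF is a DNA-binding zinc finger protein that, with cohesin, anchors chromatin loops and separates neighbouring regulatory domains. The series design text describes the libraries as 2 pairs. The labels do not say what a pair has in common or whether each library came from its own embryos. The spread behind the p-values below may therefore be technical.

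The neighbours have unrelated roles. Pkib encodes a protein kinase inhibitor that binds the catalytic subunit of protein kinase A (PKA), the kinase activated by cyclic AMP. Fabp7, also called brain lipid-binding protein, carries fatty acids inside radial glia, the progenitors that span the wall of the embryonic forebrain, and is widely used to mark them. Gja1 encodes connexin 43, which forms gap junctions between radial glia. Hsf2 encodes a heat shock transcription factor active in the developing cortex, Serinc1 a membrane protein of the serine incorporator family, and Smpdl3a a secreted phosphodiesterase related to acid sphingomyelinase.

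In the GENCODE M21 annotation of GRCm38 (the mm10 build), the order along chromosome 10 was Gja1 (56377330 to 56402513, plus strand), Hsf2 (57486385 to 57513135, plus), Serinc1 (57515774 to 57532530, minus), Pkib (57631981 to 57741112, plus), Fabp7 (57784881 to 57788450, plus) and Smpdl3a (57794335 to 57811830, plus). The identifiers in the table were ENSMUSG00000050953.9, ENSMUSG00000019878.7, ENSMUSG00000019877.10, ENSMUSG00000019876.15, ENSMUSG00000019874.11 and ENSMUSG00000019872.13 in the same order. Gja1 stood apart, 1083.9 kb from Hsf2, while Hsf2 and Serinc1 were 2.6 kb apart. Pkib was the longest of the genes at 109.1 kb, beginning 99.5 kb from the nearest edge of Serinc1. From the end of Pkib to the start of Fabp7 there were 43.8 kb, and from the end of Fabp7 to Smpdl3a 5.9 kb.

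RefSeq promoter windows of GRCm38.p6, 250 bases before to 50 after an annotated start, were found for 4 of the 6 genes, with 2 starts for Pkib. The windows of Pkib and Fabp7 are shown because these neighbours differed in opposite directions. The first Pkib window is chr10:57631731-57632030, the second is chr10:57645619-57645918 and that of Fabp7 is chr10:57784673-57784972, all on the plus strand. Capitals mark matches to the motifs named after the sequences.
Pkib start 1: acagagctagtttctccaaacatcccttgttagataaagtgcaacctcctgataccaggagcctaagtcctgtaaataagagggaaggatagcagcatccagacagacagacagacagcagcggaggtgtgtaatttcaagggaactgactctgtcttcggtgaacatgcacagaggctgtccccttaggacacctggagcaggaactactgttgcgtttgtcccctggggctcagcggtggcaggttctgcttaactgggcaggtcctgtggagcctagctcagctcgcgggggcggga
Pkib start 2: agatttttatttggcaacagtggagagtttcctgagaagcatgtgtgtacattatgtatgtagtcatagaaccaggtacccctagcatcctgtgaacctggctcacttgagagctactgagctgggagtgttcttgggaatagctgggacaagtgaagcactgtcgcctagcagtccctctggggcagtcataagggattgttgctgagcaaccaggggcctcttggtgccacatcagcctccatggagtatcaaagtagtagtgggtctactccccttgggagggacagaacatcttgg
Fabp7: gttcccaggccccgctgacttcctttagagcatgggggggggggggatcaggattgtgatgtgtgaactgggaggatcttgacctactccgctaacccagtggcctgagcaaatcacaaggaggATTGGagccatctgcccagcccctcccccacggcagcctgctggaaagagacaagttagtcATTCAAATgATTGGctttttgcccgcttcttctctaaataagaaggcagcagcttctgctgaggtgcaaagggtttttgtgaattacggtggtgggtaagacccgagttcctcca
The motifs were searched on both strands. They were the CTCF core motif, the RBPJ motif GTGGGAA, the heat shock element GAANNTTC, the cyclic AMP response element TGACGTCA, the TATA box TATAAA, the CCAAT box CCAAT and the POU octamer ATNCAAAT, the last 2 added after the windows had been read. Neither Pkib window held any of them. The Fabp7 window held the octamer at -65 from the start, as ATTCAAAT, and CCAAT boxes on the minus strand at -126 and -56, with no overlap between the matches. CCAAT boxes were also in the Hsf2 window, at -184 on the plus and -147 on the minus strand. The Gja1 window held none of the motifs. Of 32851 windows of this length, 4.36% held the octamer, 37.4% a CCAAT box and 2.43% the CTCF core, which was in none of the 5 windows of these genes. The RBPJ motif was in 6.38% of the windows, the heat shock element in 7.86%, the cyclic AMP response element in 1.79% and the TATA box in 13.6%. The window of Hsf2 was the richest in CpG, with 34 CpG and 69.3% GC, against 6 CpG and 54.0% at Fabp7, 7 and 54.0% at the first Pkib start, 1 and 50.3% at the second, and 8 and 47.7% at Gja1. The medians over all windows were 7 CpG and 52.7% GC.

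Reads counted over all genes of the table summed to 43812558 and 25519331 in Ctcf-null 1 and 2 and 41294659 and 27619441 in controls 1 and 2. These sums were recovered from the deposited values, which are read counts divided by a size factor per library, called normalized counts below. Ctcf itself had 38.89 and 61.96 normalized counts in Ctcf-null 1 and 2 and 436.72 and 1133.21 in controls 1 and 2 (log2 fold change -3.81, SE 0.16, limma adjusted p = 3.3e-12). The pairs stood apart. Across all tested genes, libraries of the same number correlated at r = 0.987 and 0.984 and libraries of different number at 0.887 to 0.903. Fold changes below are from limma on log2(normalized count + 1) with the pair as a block, Ctcf-null over control, and a gene passed when its Benjamini-Hochberg adjusted p was under 0.05. In that fit 13.7% of tested genes passed, 3.67% higher and 10.1% lower, so 26.7% of the calls were higher. That share was 41.6% with TMM factors and 57.6% with upper-quartile factors, which moved the median of all genes by 0.05 and 0.11 on the log2 scale. The fitted median over all genes was -0.07.

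Pkib was higher in both Ctcf-null libraries. It had 268.7 normalized counts in Ctcf-null 1 and 700.99 in Ctcf-null 2, against 38.25 in control 1 and 80.05 in control 2, from 380 and 577 reads against 43 and 64. Both Ctcf-null values lay above both control values. The ratio was 7.02 in the first pair and 8.76 in the second, and the fitted log2 fold change was 2.95 (SE 0.16). Measured from the median of all genes it was 3.01, and Pkib stood at place 11 of 22158 from the top. With 1 library left out and no block the log2 fold change was 3.64 without Ctcf-null 1 and 2.26 without Ctcf-null 2. The gene was modest in level, at place 9552 by mean normalized count over all libraries, controls included.

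Fabp7 was lower in both Ctcf-null libraries. It had 22697.42 and 22195.96 normalized counts in Ctcf-null 1 and 2, and 35904.1 and 32680.54 in controls 1 and 2. Here too the genotypes did not overlap, and the Ctcf-null values were 36.8% lower in the first pair and 32.1% lower in the second. The size of the fall depends on the scaling. As a share of all counted reads, Fabp7 made up 0.0733% and 0.0716% in Ctcf-null 1 and 2. In controls 1 and 2 it made up 0.0978% and 0.0946%, a smaller relative difference than by normalized counts. The fitted log2 fold change was -0.61 (SE 0.06), or -0.54 from the median of all genes. That put Fabp7 at place 1223 from the bottom, far less extreme by rank than Pkib. Fabp7 was nevertheless one of the most abundant transcripts, at place 128 of 22158, with 32099 and 18270 reads in Ctcf-null 1 and 2 and 40367 and 26128 in controls 1 and 2. In bulk tissue, fewer cells of a type and less RNA per cell cannot be told apart.

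**Figure D1:**
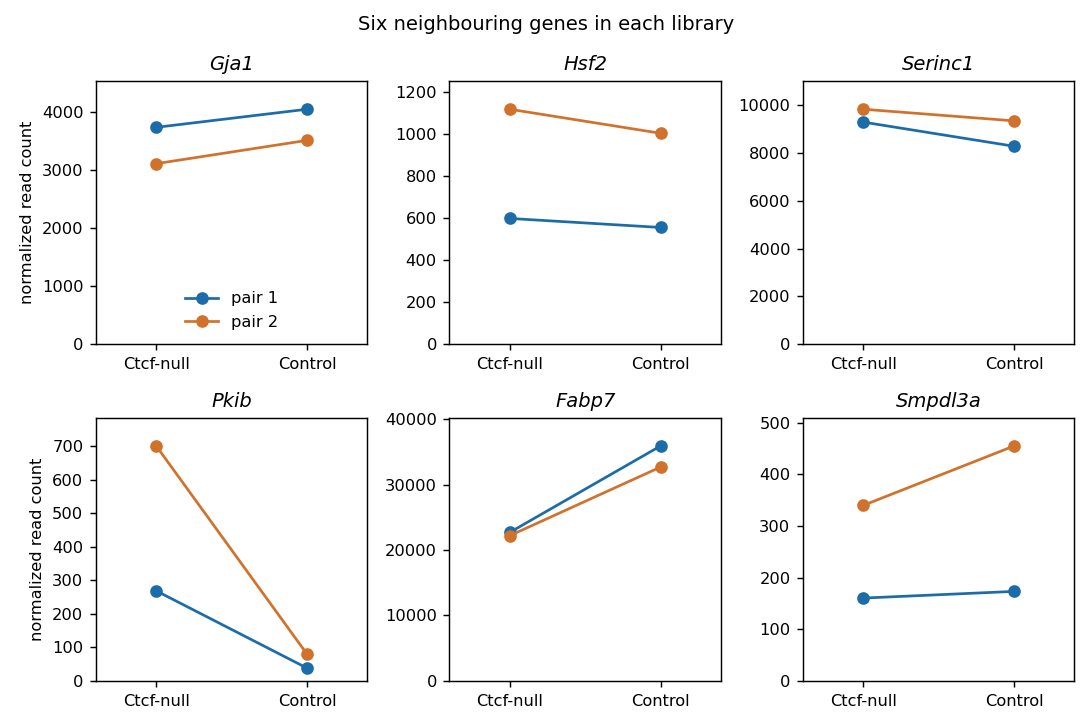
Normalized read counts (vertical axes, from 0) of the 6 genes, one panel each, in Ctcf-null libraries at the left and control libraries at the right; points are single libraries and lines join the libraries of a pair. Pkib had 268.7 and 700.99 in Ctcf-null libraries against 38.25 and 80.05 in controls, and Fabp7 22697.42 and 22195.96 against 35904.1 and 32680.54, while in the other 4 panels the genotypes overlap.

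The flanking genes differed little between genotypes. Smpdl3a, the gene just beyond Fabp7, had 160.51 and 340.17 normalized counts in Ctcf-null 1 and 2 and 173.44 and 455.29 in controls 1 and 2. It was lower within each pair, by 7.46% in the first and 25.3% in the second, and the fitted log2 fold change was -0.27 (SE 0.13). Serinc1, on the other side of Pkib, had 9285.73 and 9824.78 in Ctcf-null 1 and 2 and 8276.26 and 9338.37 in controls 1 and 2, a log2 fold change of 0.12 (SE 0.06). Hsf2 had 598.92 and 1118.91 in Ctcf-null 1 and 2 and 555.9 and 1004.38 in controls 1 and 2, with 0.13 (SE 0.09). Both were slightly higher within each pair, and for both the genotypes overlapped. Gja1, the most distant gene, had 3728.57 and 3104.03 in Ctcf-null 1 and 2 and 4039.85 and 3504.7 in controls 1 and 2, with -0.15 (SE 0.07). It was lower within each pair, with overlapping genotypes.

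Of the 6 genes, 1 passed upward (Pkib), 1 passed downward (Fabp7) and 4 did not pass, beside 13.7% of all tested genes, and nothing can be read from that count because the genes were chosen from this contrast. With genotype as the only term in limma, 0 of the 6 passed, as did 0 of all 22158 tested genes. In that fit 2 of the 6 had an unadjusted p under 0.05, beside 170 of all tested genes. The choice of the genes bears on these counts too. Non-overlapping genotypes were found for 2 of the 6, against 14.1% of all tested genes. All 6 kept 1 sign in both pairs, as 67.4% of tested genes did.

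Per kb of annotated exon, a scale that compares genes as far as the lengths hold, Fabp7 was at 18200 and 17800 normalized counts in Ctcf-null 1 and 2 and at 28700 and 26100 in controls 1 and 2. Serinc1 followed at 1800 and 1910 against 1610 and 1810 on the same scale, then Gja1 at 364 and 303 against 394 and 342. Smpdl3a was at 77.7 and 165 in Ctcf-null libraries against 84.0 and 220 in controls, and Hsf2 at 62.3 and 116 against 57.9 and 105. The ranges of Smpdl3a and Hsf2 over the libraries overlapped. Pkib was lowest of the 6 in every library, at 22.8 and 59.4 in Ctcf-null 1 and 2 against 3.24 and 6.78 in controls 1 and 2. Before division by length Pkib lay above Smpdl3a in Ctcf-null 1 and 2 (268.7 and 700.99 against 160.51 and 340.17) and below it in both controls. The order of the 6 genes on this scale was the same in each of the 4 libraries. Lengths were the union of all annotated exons, 11800 bases for Pkib and 1250 for Fabp7, which understates a gene whose long exons are unused.

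The second pair against the first, averaged over genotypes, is a difference that the choice of the genes did not use. Pkib was higher in pair 2 by 1.21 on the log2 scale (SE 0.16, limma adjusted p = 7.8e-07), being 2.61-fold higher among the Ctcf-null libraries and 2.09-fold higher among the controls. Smpdl3a was higher by 1.23 (SE 0.13, adjusted p = 5.1e-08) and Hsf2 by 0.88 (SE 0.09, adjusted p = 3.2e-08), whereas Gja1 was lower by 0.23 (SE 0.07, adjusted p = 0.0043). Serinc1, at 0.13 (adjusted p = 0.071), and Fabp7, at -0.08 (adjusted p = 0.21), did not pass. The pair difference was larger in size than the genotype difference for Smpdl3a, Hsf2 and Gja1, about equal for Serinc1 (0.13 and 0.12), and smaller for Pkib and Fabp7. Passing was common in this comparison, with 73.4% of all tested genes past the threshold, 41.2% higher and 32.2% lower in pair 2, so 4 of 6 is close to the background.

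**Figure D2:**
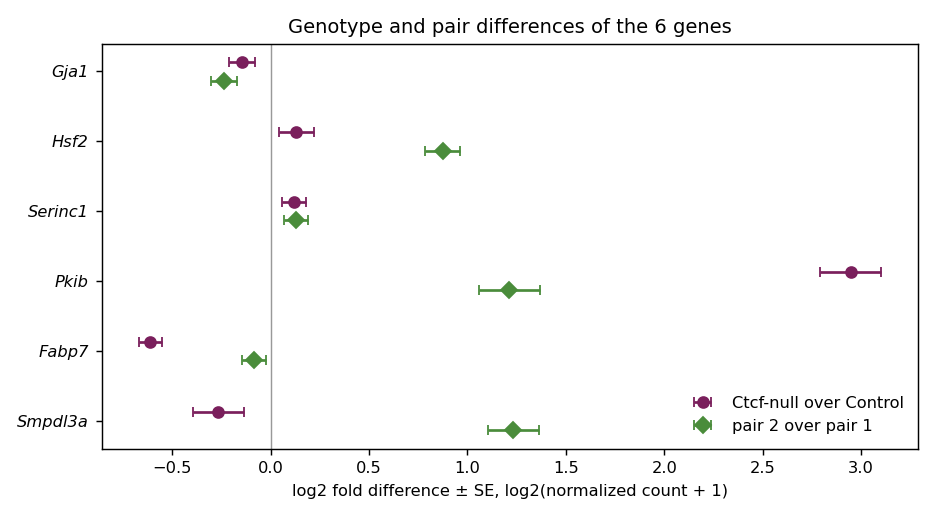
Fitted log2 differences (horizontal axis, log2(normalized count + 1) scale) of the 6 genes in order of position, with bars of 1 SE; circles are Ctcf-null over control and diamonds pair 2 over pair 1. Pkib lies at 2.95 for genotype and 1.21 for pair, Fabp7 at -0.61 and -0.08, and Smpdl3a at -0.27 and 1.23.

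The wider neighbourhood was taken as 1 Mb beyond the outermost of the 6 genes, where 22 other genes were in the table and 13 could be tested. None of the 13 passed in limma, with 5 at an unadjusted p under 0.05, and 8 were above and 5 below 0, with a median log2 fold change of 0.11. Among the 8 above 0 were AW822073, Gm10807, Duxf3 and Gm4981, which lie side by side in the repeat array described below. They are therefore not separate observations. Over all 22158 tested genes 13.7% passed in limma, 5998 had an unadjusted p under 0.05, and the median was -0.07. DESeq2 called none, with 1 at an unadjusted p under 0.05, beside 832 called and 2301 at that p over all tested genes. In edgeR 2 were called, both higher, where 11.9% of all tested genes passed (4.80% higher and 7.13% lower). Both lie in a repeat array that holds double homeobox genes, AW822073 (0.73, edgeR adjusted p = 0.012), starting 591.0 kb from the start of Pkib, and Duxf3 (0.63, edgeR adjusted p = 0.0034), starting 598.0 kb from it. Duxf3 had 560.74 and 102.05 normalized counts in Ctcf-null 1 and 2 and 332.65 and 93.81 in controls 1 and 2, with a limma log2 fold change of 0.44 (adjusted p = 0.066). The copies of such an array are near-identical and can share reads, so their single values are uncertain. Between Pkib and Fabp7 lies 1 gene of the table, the pseudogene Gm5777, with 9.19 and 9.72 normalized counts in Ctcf-null 1 and 2 against 6.23 and 6.25 in controls 1 and 2, from at most 13 reads a library (log2 fold change 0.53, SE 0.51, limma adjusted p = 0.55). At the ends of the window, Tbc1d32 was at 0.11 (adjusted p = 0.73) and Edar, the ectodysplasin receptor gene, at -0.47 (adjusted p = 0.36). The largest limma value was that of Gm4981, another gene of the array, at 1.78 (SE 0.62, limma adjusted p = 0.062), from 46 and 9 reads in Ctcf-null 1 and 2 and 37 and 0 in controls 1 and 2. Its normalized counts in the first pair were 32.53 in Ctcf-null 1 and 32.91 in control 1. In edgeR Gm4981 was at 0.42 (edgeR adjusted p = 0.6).

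**Figure D3:**
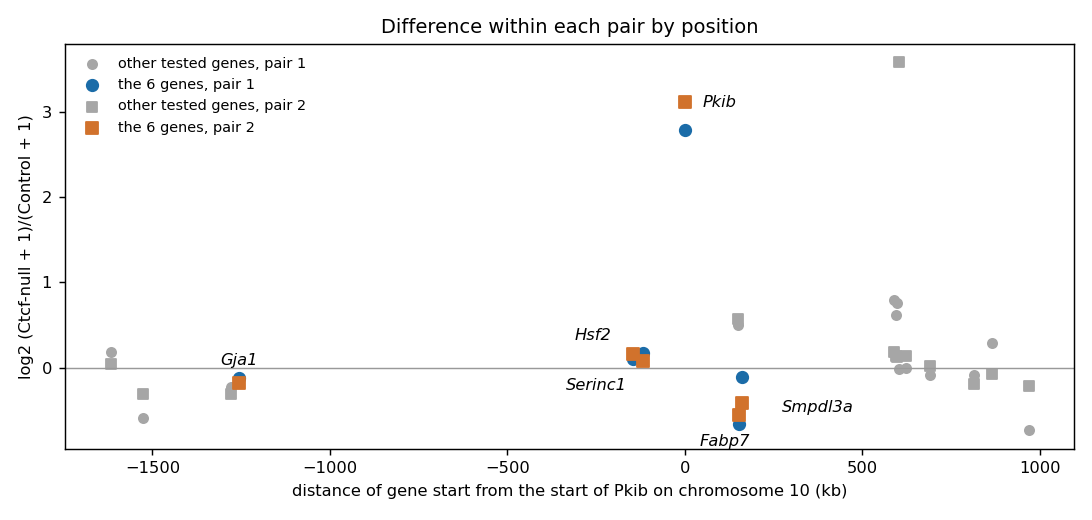
Log2 ratio of Ctcf-null to control within each pair (vertical axis) against the distance of each gene's start from the start of Pkib (horizontal axis, kb); circles are pair 1, squares pair 2, coloured points the 6 genes and grey points the 13 other tested genes. Pkib lies at 2.78 and 3.11 and Fabp7 at -0.66 and -0.56, with the other coloured points between -0.42 and 0.17; the grey square above Pkib is Gm4981, which had 0 reads in control 2.

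Genes of the PKA pathway around Pkib changed in both directions. Of 36 tested, 4 rose and 3 fell, beside 3.67% higher and 10.1% lower over all tested genes, with a median log2 fold change of -0.03 against -0.07. In edgeR 4 rose and 2 fell, the phosphodiesterase gene Pde4b (-0.30, limma adjusted p = 0.035) not passing there (adjusted p = 0.10). The other members of the inhibitor family went opposite ways. Pkia had 2998.13 and 3622.79 normalized counts in Ctcf-null 1 and 2 and 2313.44 and 3283.31 in controls 1 and 2 (log2 fold change 0.26, SE 0.07, limma adjusted p = 0.024), and Pkig 381.84 and 2895.07 against 470.51 and 3637.29 (-0.31, SE 0.08, adjusted p = 0.013). Per kb of exon, Pkia was at 806 and 974 in Ctcf-null libraries and Pkig at 95.7 and 726, so that Pkib, at 22.8 and 59.4, was the least abundant of the inhibitors on that scale in Ctcf-null libraries too. Neither catalytic subunit gene passed, Prkaca at -0.16 (adjusted p = 0.35) and Prkacb at 0.08 (adjusted p = 0.54), nor did any of the 4 regulatory subunit genes, which lay between -0.29 and 0.14. Pde1c, a calmodulin-dependent phosphodiesterase that breaks down cyclic nucleotides, rose by 1.54 (SE 0.10, adjusted p = 1.2e-09), with 1188.65 and 736.22 normalized counts in Ctcf-null 1 and 2 and 389.58 and 265.17 in controls 1 and 2. The adenylyl cyclase gene Adcy1 rose by 0.47 (SE 0.11, adjusted p = 0.0052) and the anchoring protein gene Akap13 by 0.66 (SE 0.11, adjusted p = 2.8e-04), while Akap7, another anchor, had -0.46 (SE 0.14, adjusted p = 0.037). Of these, Pkia, Pkig, Akap7 and Adcy1 did not pass in DESeq2 (adjusted p of 0.092 to 0.43), Akap7 not with TMM factors (adjusted p = 0.081), and Pkig and Akap7 not with upper-quartile factors (adjusted p of 0.13 and 0.12).

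In the family of small lipid-binding proteins to which Fabp7 belongs, 7 of 13 genes could be tested, and 3 fell and 0 rose in limma and in edgeR (2 higher at an unadjusted limma p under 0.05), beside 10.1% lower over all tested genes in limma, with a median of -0.04. Fabp5, the epidermal type that progenitors also make, had 11194.21 and 20197.48 normalized counts in Ctcf-null 1 and 2 and 14306.67 and 24706.78 in controls 1 and 2 (-0.32, SE 0.06, limma adjusted p = 1.0e-03). Crabp1, which binds retinoic acid, fell by 1.41 (SE 0.11, adjusted p = 1.9e-08). Fabp3, the heart type, did not pass, at 0.18 (adjusted p = 0.18). Per kb of exon, Fabp5 reached 3140 and 5660 in Ctcf-null libraries against 4010 and 6930 in controls, below Fabp7 in each library. The call of Fabp5 was lost in DESeq2 (adjusted p = 0.058) and with upper-quartile factors (adjusted p = 0.082).

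Fabp7 is used as a marker of radial glia, and 27 of 28 other genes on a radial glia list could be tested. Of these, 8 fell and 1 rose in limma, beside 10.1% lower and 3.67% higher over all tested genes, with a median of -0.16 beside -0.07. In edgeR 7 fell and 2 rose, Pax6 being called there (adjusted p = 0.020) and not in limma (0.21, adjusted p = 0.071). Lhx2, a transcription factor of cortical progenitors, had 1203.5 and 2344.73 normalized counts in Ctcf-null 1 and 2 and 2123.99 and 3289.57 in controls 1 and 2 (-0.65, SE 0.08, limma adjusted p = 1.4e-05). Hes5, a Notch target, fell by 0.57 (SE 0.10, adjusted p = 6.7e-04) and Ttyh1, a membrane protein gene, by 0.55 (SE 0.09, adjusted p = 3.4e-04). The gene that rose was the proteoglycan gene Bcan, at 0.82 (SE 0.13, adjusted p = 2.6e-04). The summed level of the list was 63777.46 and 101089.46 in Ctcf-null 1 and 2 and 73164.6 and 111351.23 in controls 1 and 2, lower in the Ctcf-null library of each pair. Other common markers did not pass, with Slc1a3 at 0.04, Nes at -0.01, Vim at -0.13 and Sox2 at -0.18 (adjusted p of 0.20 to 0.97), and Hopx had too few reads to be tested. In an early astroglia and oligodendrocyte progenitor list, 3 of 8 rose and 0 fell in limma, with 2 lower at an unadjusted p under 0.05 and 1 that fell in edgeR. The list was led by Aldh1l1 at 1.03 (SE 0.08, adjusted p = 3.8e-08), with Slc1a2 at 0.54 and Pdgfra at 0.53. In the same list Olig1, at -0.62 (limma adjusted p = 0.088, edgeR adjusted p = 0.0085), and Olig2, at -0.60 (limma adjusted p = 0.16), lay on the other side of 0. The sum of the list was 6206.96 and 5601.83 in Ctcf-null 1 and 2 and 4983.56 and 4861.8 in controls 1 and 2. Of this, Aldh1l1 made up 1448.86 and 1538.05 against 705.33 and 760.48. In the second pair the difference of the sums was smaller than that of Aldh1l1 alone. The part of cell composition in the difference of Fabp7 was not tested.

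Gap junction genes other than Gja1 were mostly at low levels, so that 7 of 19 connexins could be tested, of which 2 fell and 1 rose, beside 10.1% and 3.67% of all tested genes, with a median of -0.29. Gja4 and Gja5, connexins of blood vessels, had -0.41 (SE 0.09, limma adjusted p = 0.0049) and -0.69 (SE 0.15, adjusted p = 0.0045), and Gjd2, a connexin of neurons, had 0.68 (SE 0.20, adjusted p = 0.031). Gjc1, at -0.29, did not pass (adjusted p = 0.072). Gja4 had 403.76 and 846.78 normalized counts in Ctcf-null 1 and 2 and 546.12 and 1113.2 in controls 1 and 2. None of the 3 that passed did so in DESeq2 (adjusted p of 0.16 to 0.38).

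Relatives and partners of the remaining neighbours are read beside the 13.7% of all tested genes that passed (3.67% higher and 10.1% lower). In that limma fit 5998 of 22158 genes had an unadjusted p under 0.05. The list of heat shock factors and chaperones, taken beside Hsf2, also holds Cdk5r1, which is neither. Of its 16 tested genes, 0 rose and 1 fell in limma (1 higher and 4 lower at an unadjusted p under 0.05), with a median of -0.13. That was Hspe1, a mitochondrial chaperonin, at -0.20 (SE 0.06, limma adjusted p = 0.038), which did not pass in edgeR, in DESeq2 or with TMM or upper-quartile factors (adjusted p of 0.15 to 0.51), while Hsf1, the paralog that drives the stress response, was at -0.21 (adjusted p = 0.17). Of 10 genes of the serine incorporator family and serine lipid synthesis, 3 fell and 0 rose in limma (1 higher at an unadjusted p under 0.05), with a median of -0.11. Serinc2 fell by 0.40 (SE 0.07, adjusted p = 8.1e-04), as did the serine synthesis enzyme genes Psph, at -0.32 (adjusted p = 0.0090), and Psat1, at -0.28 (adjusted p = 0.0068), whereas Serinc3, at -0.01, and Serinc5, at 0.25, did not pass. Psph and Psat1 lost the call with upper-quartile factors (adjusted p of 0.11 and 0.17) and in DESeq2 (adjusted p of 0.23 and 0.21). The sphingomyelin phosphodiesterase list also holds the ceramidase genes Asah1 and Asah2 and the sphingomyelin synthase genes Sgms1 and Sgms2. Of its 9 genes, 1 fell and 0 rose in limma (0 higher and 2 lower at an unadjusted p under 0.05), with a median of -0.03. That was Smpdl3b, the paralog of Smpdl3a, with 10.61 and 20.65 normalized counts in Ctcf-null 1 and 2 and 28.46 and 61.29 in controls 1 and 2 (-1.43, SE 0.32, adjusted p = 0.0044, and 0.19 in DESeq2). Smpd1, the acid sphingomyelinase gene, was at -0.09 (adjusted p = 0.56). Over the 6 lists together, 5 genes rose and 13 fell of 85, which is 21.2% beside 13.7% of all genes. A limma fit of only the genes with a mean of at least 50 normalized counts called 2833 of 14582. The part of level in the share of the lists was not tested. DESeq2 called 2 and 3, beside 289 and 543 of all 22158 genes. Upper-quartile factors gave 10 and 6, beside 1279 and 942, and with genotype as the only term limma called 0 and 0.

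**Figure D4:**
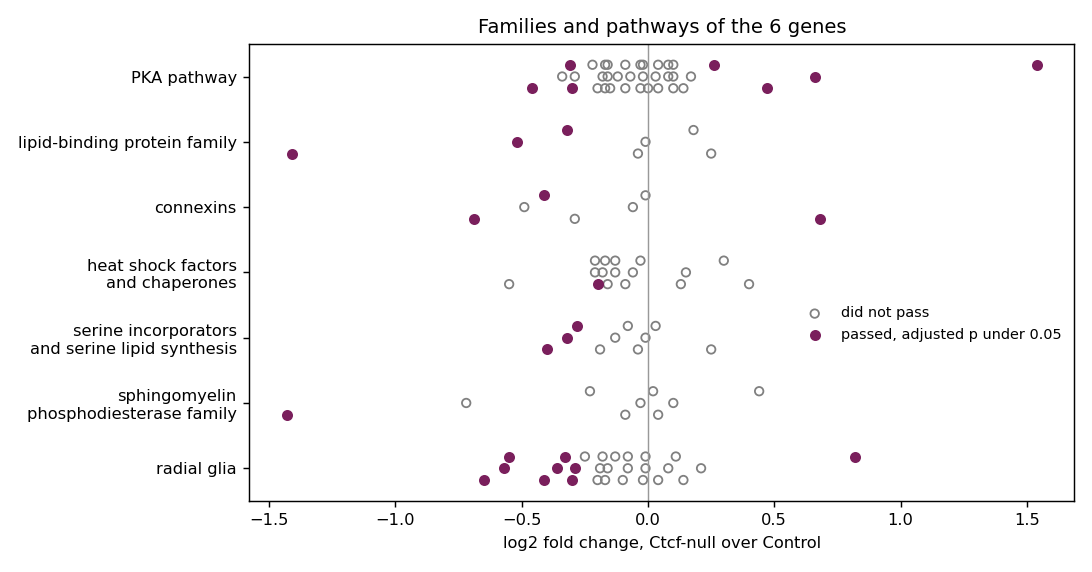
Fitted log2 fold changes (horizontal axis, Ctcf-null over control) of the tested genes in the 6 family and pathway lists and the radial glia list (rows), without the 6 neighbours themselves; filled points passed at an adjusted p under 0.05. Pde1c at 1.54 lies farthest to the right, and Smpdl3b at -1.43 and Crabp1 at -1.41 farthest to the left.

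Markers of other cells that the tissue can hold were followed by counts and by their summed normalized counts, and no marker of these lists was at 0 in any library. Over all tested genes 3.67% passed higher and 10.1% lower in limma, and 4.80% and 7.13% in edgeR. The limma median was -0.07, and 5998 of 22158 genes had an unadjusted limma p under 0.05. For choroid plexus, 2 of 7 genes rose and none fell in limma or edgeR (median 0.22), with sums of 96129.05 and 36287.42 in Ctcf-null 1 and 2 and 73433.22 and 25179.57 in controls 1 and 2, nearly all of it Ttr. For microglia, 1 of 7 rose in limma and 2 in edgeR (median 0.32), with sums of 1332.17 and 3145.33 against 1081.57 and 2495.33 in controls. Both sums were higher in the Ctcf-null library of each pair. For endothelium, 1 of 7 fell in limma and 0 in edgeR (median -0.08), with sums of 2247.89 and 6496.0 in Ctcf-null 1 and 2 and 2461.08 and 6879.32 in controls 1 and 2. For meninges and pericytes, 0 of 9 passed in limma or edgeR, 1 having an unadjusted limma p under 0.05 (median 0.00), with sums of 4449.13 and 7946.57 against 4593.08 and 7882.45 in controls. For red blood cells, 0 of 6 passed in either, 3 having an unadjusted limma p under 0.05 (median -0.19), with sums of 910892.84 and 599893.63 in Ctcf-null 1 and 2 and 1315723.05 and 553843.02 in controls 1 and 2, lower in the first pair and higher in the second. For neurons, 3 of 7 fell in limma and in edgeR (median -0.27), and 1, Dcx, rose in edgeR (adjusted p = 0.033), with 0.16 in limma (adjusted p = 0.094). Their sums were 247498.69 and 195153.19 in Ctcf-null 1 and 2 and 338240.54 and 238755.04 in controls 1 and 2, of which Tubb3 made up 151648.24 and 114976.8 against 237901.71 and 150029.28. Their part in the values of the 6 neighbours was not tested.

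The genes whose pattern over the 4 libraries was most like that of Pkib were found by the Euclidean distance between log2(normalized count + 1) values, each gene centred on its own mean. The nearest was Mnd1, a gene of meiotic recombination, at a distance of 0.42, followed by Dhrs2 at 0.47, the calcium pump regulator Sln at 0.67, Mnd1-ps at 0.72 and Gm10644 at 0.75. Mnd1 had 567.81 and 1318.15 normalized counts in Ctcf-null 1 and 2 and 58.7 and 178.86 in controls 1 and 2. Like Pkib, it was higher in both Ctcf-null libraries and higher in the second pair. Mnd1-ps is named as a pseudogene of Mnd1 and may share its reads. For Fabp7 the nearest genes were Acsl6, which activates fatty acids, at 0.06, Gm12906 at 0.07, Dnase1l2 at 0.07, Casp12 at 0.07 and Hbq1a at 0.09. Acsl6 had 481.54 and 459.23 normalized counts in Ctcf-null 1 and 2 and 748.02 and 654.16 in controls 1 and 2. The 4 others lay under 100 normalized counts in every library. With 4 libraries, such a ranking is a description only.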

How the data were processed

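Telencephalon of embryonic day 14 was sequenced from 2 Ctcf-null and 2 control samples. Per the labels' protocols, cDNA was made with a Clontech SMART kit. The submitters' processing notes name the aligner STAR 2.5.3, the package DESeq2 and the build mm10; no source used here names the counter, its strand setting or the annotation release. Per the file headers, the deposited values are normalized read counts, a signal not divided by gene length. Each library's values were whole multiples of 1 step, worth 0.707 and 1.21 in Ctcf-null 1 and 2 and 0.889 and 1.25 in controls 1 and 2, and 99.97% or more of the values above 0 became whole reads when divided by it (tolerance 0.005). For each pair the authors also deposited a log2 fold change, which is log2 of (Ctcf-null + 1)/(control + 1) and was recomputed with gaps of at most 0.008.

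Genotype and pair effects were fitted to log2(normalized count + 1) by limma 3.58.1 in R 4.3.3, its variance prior following the mean level, for genes kept by filterByExpr (edgeR 4.0.16), two-sided. This can understate changes of genes with low counts and leaves 1 residual degree of freedom per gene, so the spread is shared across genes. Alternatives were edgeR's quasi-likelihood test and DESeq2 1.42.0 on recovered reads, other scalings, filters and pseudocounts, no block, and libraries left out. The scripts were tested on simulated data. The pairing rests on the series design text and on the fold change per pair in the table, and libraries of the same number deviated together from the mean of their genotype (r = 0.923). Coordinates are from GENCODE M21 (GRCm38) and promoter sequences from RefSeq (GRCm38.p6). The genes and lists were chosen with earlier results of these data known. Named were the 6 neighbours, their nearest paralogs, up to 4 genes per family list and of the radial glia list that passed with the largest change, genes of the wider neighbourhood that passed and those at its ends, the 5 genes most like Pkib and Fabp7, and Ctcf. Others named were chosen after their values were seen. 1 gene that the rule names is not reported here.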

Additional observations from a re-analysis of the deposited data

How the results depend on the processing

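Pkib stayed higher (2.86 to 3.06) and Fabp7 lower (-0.61 to -0.50 on the log2 scale) in all 8 tested alternatives that used every library. Scaling by the summed reads alone, which gives a smaller fall of Fabp7, was not among them. With 1 library or pair left out Pkib ranged from 2.26 to 3.64 and Fabp7 from -0.68 to -0.54. The calls depended on the pair block. With no replicate block limma called 0 genes in either direction, against 813 higher and 2228 lower with it (170 genes at an unadjusted p under 0.05), 0 of the 6 neighbours and 0 list genes. DESeq2 with the block called 289 higher and 543 lower, TMM factors 1349 lower, and upper-quartile factors 1279 higher and 942 lower. In the wider neighbourhood TMM and upper-quartile factors called 1 gene each as higher, and edgeR and the unfiltered fit 2 each, against 0. Over all tested genes, TMM factors called 960 of 22158 as higher and upper-quartile factors 1279 of 22158. EdgeR called 1063 of 22158 as higher and the unfiltered fit 940 of 41768. Of the list genes, 5 rose and 13 fell, against 2 and 3 in DESeq2 and 10 and 6 with upper-quartile factors. The causes were not tested.

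Leaving out 1 library, which leaves an arm with 1 sample assumed to vary like the other arm and needs a fit with no replicate block, gave 0 calls throughout, except 2 lower genes without Ctcf-null replicate 1. Leaving out a whole pair gives values with no test. Single genes were followed over these leave-outs only if they were neighbours, Ctcf, or family and radial glia list genes named by the rule above. Others named in the text, such as Ttr, Vim, Sox2 and Prkaca, were not followed and may change sign too. Of the genes followed, 12 that had passed changed sign, each only where a pair was broken. So did Hsf2, Smpdl3a, Fabp3, Hsf1, Smpd1, Gjc1, Serinc5 and Serinc3, which had not passed, and Serinc3 differed in sign between the pairs (0.22 and -0.23). The ranges on the log2 scale, with the second value that changed sign in brackets, were -1.79 to 1.16 for Pkig (1.14), -1.12 to 0.21 for Akap7, -0.04 to 0.98 for Adcy1 (-0.01), -0.75 to 0.10 for Fabp5 (0.07), -0.95 to 0.12 for Gja4 (0.10), -0.35 to 1.71 for Gjd2 (-0.16), -0.67 to 0.27 for Hspe1 (0.25), -1.14 to 0.33 for Serinc2 (0.30), -0.69 to 0.04 for Psph (0.02), -2.76 to 1.61 for Hes5 (1.57), -1.29 to 0.18 for Ttyh1 and -0.85 to 2.49 for Bcan (-0.68). Pkib rests on 43 and 64 control reads, so its fold is less precise than that of Fabp7.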
